A study of Mus musculus with 9 samples.

Results

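Sensory ganglia make many peptide transmitters besides CGRP, and the mRNAs of 9 of them were followed here in the mouse trigeminal ganglion (TG) after inflammation of the temporomandibular joint (TMJ). The genes were Tac1, Adcyap1, Nppb, Sst, Nmb, Gal, Npy, Vip and Cartpt. They were picked by name as the known peptide transmitters of sensory neurons, and the level of each gene was the sum of the FPKM of its transcripts in the mRNA table (fragments per kilobase and per mapped fragments). All 9 were among the 21809 gene sums of that table, with 23 transcripts between them. All 9 also passed the filter for testing, a mean level of 0.1 FPKM or more, although Vip passed it through a single library.

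The mice were wild-type male C57BL/6 animals, 8 weeks old, and received 1 injection into the TMJ under isoflurane. The saline group received 10 µl of saline and the other animals 10 µl of complete Freund's adjuvant (CFA, 5 mg/ml), an oil with killed mycobacteria that inflames the joint. TG was taken on day 3 (CFA3D) or day 6 (CFA6D), and the saline libraries carry the label of day 3, so no saline group of day 6 stands beside CFA6D. Each group had 3 libraries, and each library pooled TG punches of 3 mice, taken from 1 side that the methods do not name. The replicates were saline 1 to 3, CFA3D 1 to 3 and CFA6D 4 to 6. The punches held more than the neurons that supply the TMJ, which are only part of the ganglion.

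Neuropeptides are cut from larger precursor proteins by convertases, stored in dense-core vesicles and released to act on G protein-coupled or guanylyl cyclase receptors. Tac1 encodes the precursor of substance P and neurokinin A, which act on tachykinin receptors and are made with CGRP in peptidergic nociceptors. Adcyap1 encodes PACAP, Nmb neuromedin B, Gal galanin, Cartpt the CART peptides, Npy neuropeptide Y and Vip vasoactive intestinal peptide. Nppb, which encodes the natriuretic peptide BNP, and Sst, which encodes somatostatin, are known as joint markers of a class of itch neurons. Gal, Npy and Vip are known for their induction in sensory neurons after nerve injury.

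Alternative splicing gives the Tac1 and Cartpt precursors different forms, and the segments that tell these forms apart are shown because the transcript values below rest on them. In each line the alternative segment is in capitals, between 20 bases of the neighbouring exons in lower case, on the gene's strand and from the GENCODE M21 transcripts on GRCm38. Exon 4 of Tac1-205 (chr6:7557216-7557260, plus strand) has 45 bases and is absent from Tac1-203. Exon 6 of Tac1-205 (chr6:7559099-7559152, plus strand) has 54 bases, holds the neurokinin A coding part and is absent from Tac1-201. The end of exon 2 of Cartpt-201 (chr13:99900041-99900079, minus strand) has 39 bases and is absent from Cartpt-202. All of these segments are coding sequence and hold whole codons (15, 18 and 13), so that the reading frame is kept in the shorter forms.
Tac1 exon 4: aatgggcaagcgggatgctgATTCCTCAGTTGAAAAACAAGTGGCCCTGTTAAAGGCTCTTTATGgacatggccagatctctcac
Tac1 exon 6: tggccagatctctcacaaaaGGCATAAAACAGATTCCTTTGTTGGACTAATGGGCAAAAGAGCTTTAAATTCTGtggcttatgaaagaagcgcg
Cartpt exon 2 end: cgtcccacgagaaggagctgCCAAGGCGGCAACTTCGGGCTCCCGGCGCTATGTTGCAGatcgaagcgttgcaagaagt

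Sst is also a textbook case of a gene with a cyclic AMP response element, and this element was looked for in the promoters of the 9 genes. Promoters were windows of 250 bases before to 50 bases after the start of a gene in RefSeq (GRCm38), and all 9 genes matched, Adcyap1 with 2 starts, which gave 10 windows. The octamer TGACGTCA, which reads the same on both strands, was present in 1.79% of all 32851 windows and in 2 of the 10, those of Sst and Cartpt. It began 48 bases before the RefSeq start of Sst (shown part chr16:23890875-23890902, minus strand) and 112 bases before that of Cartpt (chr13:99900778-99900805, minus strand). In GENCODE, Sst-201 starts further upstream (chr16:23890958), so that the octamer lies within its span. The Cartpt octamer lies before the start of Cartpt-201 (chr13:99900641) but after that of Cartpt-202 (chr13:99901091). The TATA box letters TATAAA, on either strand, were in 13.6% of all windows and in 3 of the 10, from Nppb, Vip and the Adcyap1 start that matches Adcyap1-201, the transcript with the highest level of that gene. They began 31 bases before the start in Nppb, and 157, 147 and 30 bases before it in Vip. In Adcyap1 they began 58 bases before the start (chr17:93199100-93199125, plus strand). The short form Adcyap1-204 starts further upstream (chr17:93199017), so that the letters lie within its span. The matches in letters, in capitals between 10 bases of context, describe the windows and were not tested as binding sites.
Sst: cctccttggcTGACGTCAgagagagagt
Cartpt: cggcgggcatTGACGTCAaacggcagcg
Adcyap1: taactgcataTATAAAaacgagcaga

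The order of the levels was Tac1, Nmb, Adcyap1, Gal, Cartpt, Nppb, Sst, Npy and Vip on the FPKM scale, which corrects for transcript length. Tac1 had a mean of 64.0 FPKM over the 9 libraries (53.0 to 77.2) and stood above 96.7% of the gene sums tested. Nmb had a mean of 47.8 FPKM (39.4 to 54.4). The range of Nmb met that of Tac1 at one end and lay wholly above that of Adcyap1, whose mean was 4.19 times lower. Adcyap1 had a mean of 11.4 FPKM (8.42 to 14.8) and Gal 5.56 FPKM (3.40 to 10.4). Cartpt, Nppb and Sst followed with means of 3.20, 2.93 and 2.64 FPKM, and their ranges overlapped so much that their order was not resolved. Npy had a mean of 0.71 FPKM (0.124 to 1.68) and Vip 0.196 FPKM (0 to 1.35). Nmb to Adcyap1 was the only step of this order at which the ranges over the libraries did not overlap.

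The precision behind these levels differed widely between the genes. The tables hold no counts, but the spacing of their low values gave a depth of 30.1 to 42.5 M read pairs per library. By this estimate Tac1 rested on 1584 to 2577 read pairs in a library and Adcyap1 on 684 to 1426. Nppb rested on 46.3 to 131 read pairs and Sst on 39.0 to 123. Npy had only 2.5 to 36.2 read pairs, and Vip 0 to 79.2. Npy thus had more than 13.8 read pairs in CFA6D 5 and 6 alone, and Vip more than 10.9 in CFA6D 6 alone.

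**Figure D1:**
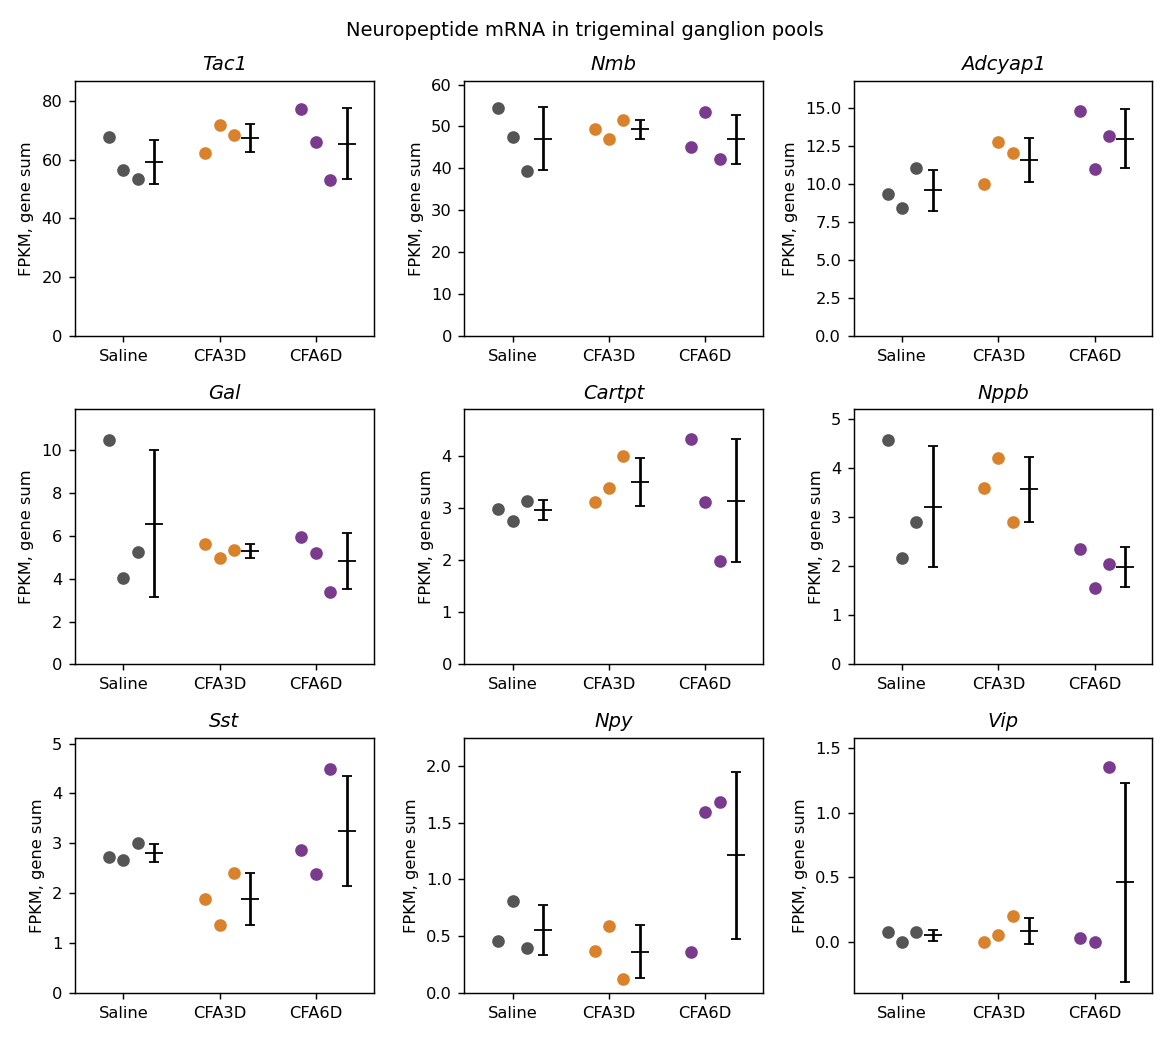
Level of each neuropeptide gene (gene sum, FPKM, linear axes of different height) in the 3 saline, 3 CFA3D and 3 CFA6D libraries. Points are libraries in replicate order, the bar beside them is the mean with its SD. The saline libraries of Sst all lie above those of CFA3D, the CFA6D libraries of Nppb all lie below those of CFA3D, and Vip is above 0.2 FPKM in CFA6D 6 alone.

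Some libraries stood apart in what other tissue they held. The sum of 7 pituitary genes was 8.89 to 99.8 FPKM in saline 1 and 2 and 14.2 to 20.8 FPKM in CFA3D, but 10685 FPKM in saline 3, 1117 FPKM in CFA6D 4, 411 FPKM in CFA6D 5 and 43.0 FPKM in CFA6D 6. The sum of 5 neutrophil granule genes of bone marrow, a list chosen after its values were seen, was 705 FPKM in CFA6D 6 and 7.56 to 41.9 FPKM in the other libraries. The sum of 4 skeletal muscle genes reached 119 FPKM in saline 2 and 45.1 FPKM in CFA6D 6. The tissue itself was a sensory ganglion by its markers, with the sensory neuron gene Pou4f1 at 14.1 to 23.1 FPKM in every library. Of 4 genes of sympathetic neurons, Dbh and Slc6a2 were at or below 0.053 FPKM in every library, Th was at 2.15 to 7.29 FPKM and Slc18a2 at 0.85 to 1.69 FPKM. Values without saline 3 and CFA6D 6 are given where they change a result, and the part of the other tissue in these results was not tested. In whole tissue, fewer cells of a type and less RNA per cell cannot be told apart.

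On day 3, Sst was the only one of the 9 genes past the study's cutoff of an unadjusted p under 0.05. Its level was 2.73, 2.66 and 3.01 FPKM in saline 1 to 3, a mean of 2.80 ± 0.184 (SD, n = 3). In CFA3D 1 to 3 it was 1.89, 1.36 and 2.40 FPKM, a mean of 1.88 ± 0.519 (SD, n = 3). All CFA3D libraries lay below all saline libraries. On the log2(FPKM + 0.1) scale Sst fell by 0.58 ± 0.25 (SE), or to 0.668 of saline with a 95% interval of 0.450 to 0.991 (limma, adjusted p = 0.997). The call of 1 gene in 9 stands beside 4.45% of all 16096 gene sums tested (717), and for Sst as the 1 gene whose libraries did not overlap the background was 9.13%. With the adjusted p under 0.05, limma called 0 gene sums in this comparison and in the other comparisons of the groups.

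The call of Sst on day 3 was not stable. The difference stayed negative but missed the cutoff without saline 1 (-0.60), saline 2 (-0.62), saline 3 (-0.53), CFA3D 1 (-0.60), CFA3D 2 (-0.38) or CFA6D 4 (-0.58). The last of these libraries enters only the shared estimate of the spread. Without saline 3 and CFA6D 6 together, Sst was lower by a log2 difference of -0.53 and missed the cutoff.

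The most abundant peptide mRNAs changed little on day 3. Tac1 was at 67.6, 56.6 and 53.2 FPKM in saline and at 62.1, 71.6 and 68.4 FPKM in CFA3D. The groups overlapped, and the log2 difference was 0.19 ± 0.14 (SE), an interval of 0.916 to 1.43 in fold. Nmb was at 54.4, 47.4 and 39.4 FPKM in saline and at 49.5, 47.0 and 51.5 FPKM in CFA3D, with an interval of 0.866 to 1.29 in fold. For both genes the interval leaves out a doubling (log2 difference of 1) and a halving (-1). Gal, Cartpt, Nppb and Npy had log2 differences of -0.19, 0.23, 0.19 and -0.59. None of them passed the cutoff. The intervals in fold were 0.534 to 1.44 for Gal, 0.802 to 1.71 for Cartpt and 0.752 to 1.74 for Nppb, and the widest was that of Npy, 0.269 to 1.64.

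On day 3 the gene sum of Adcyap1 missed the cutoff while its main transcript passed it. Their 95% intervals on the log2 scale, -0.060 to 0.60 and 0.18 to 0.99, overlapped, and no test compared them. The gene sum was 9.33, 8.42 and 11.1 FPKM in saline and 9.98, 12.8 and 12.0 FPKM in CFA3D, a log2 difference of 0.27 ± 0.15 (SE) that missed the cutoff. Adcyap1-201, which holds the whole coding sequence of 525 bases and 51.6% of the gene sum, was at 4.67, 5.01 and 4.14 FPKM in saline and at 6.96, 7.11 and 6.77 FPKM in CFA3D. No library of one group overlapped the other, as held for 9.13% of all gene sums, and the share over transcripts is not given. The log2 difference of Adcyap1-201 was 0.59 ± 0.18 (SE) in the fit over 66562 transcripts (limma, adjusted p = 0.99). It was the only one of 17 named transcripts of the 9 genes past the cutoff on day 3, against 4.68% of all transcripts tested. No named transcript passed on day 6 (6.81% of all transcripts), and between the days 3 passed (5.42%), all of them the single transcripts of Nppb, Sst and Npy. On day 6 the same transcript was at 7.50, 6.18 and 4.60 FPKM, overlapped saline and missed the cutoff (log2 difference 0.37). The gene sum on day 3 passed the cutoff without saline 3 (0.38) or CFA3D 1 (0.37).

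**Figure D2:**
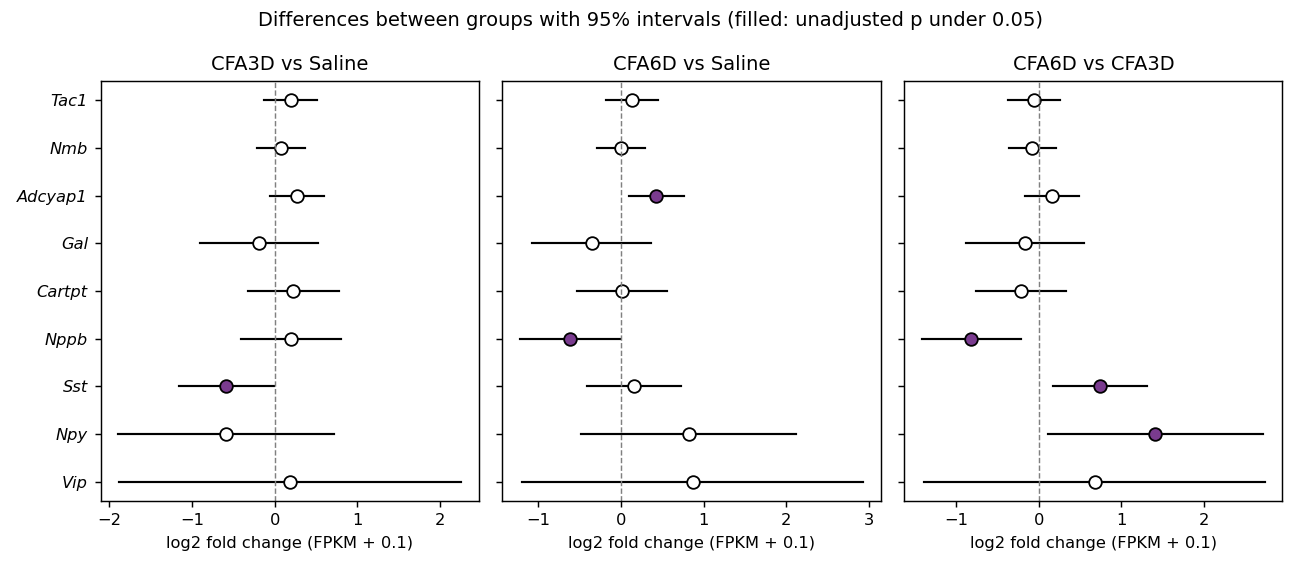
Log2 difference of each gene on the log2(FPKM + 0.1) scale, with its 95% interval from limma, for CFA3D against saline, CFA6D against saline and CFA6D against CFA3D. Filled points are past the unadjusted cutoff, which are Sst on day 3, Adcyap1 and Nppb on day 6, and Nppb, Sst and Npy between the days, and the intervals of Npy and Vip are the widest.

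On day 6, Adcyap1 was higher and Nppb lower than in saline, and the other 7 genes did not pass the cutoff. The 2 calls among 9 genes stand beside 11.1% of all gene sums tested (1781). None of the 9 genes had libraries that kept CFA6D wholly apart from saline, against 16.2% of all gene sums.

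Adcyap1 on day 6 was at 14.8, 11.0 and 13.2 FPKM, a mean of 13.0 ± 1.94 (SD, n = 3), where saline had a mean of 9.60 ± 1.34 (SD, n = 3). CFA6D 5 lay just within the saline range, and the other CFA6D libraries lay above it. The short form Adcyap1-204 made up 33.1% of the gene sum in CFA6D 6 and 31.8% in saline 3. The main form Adcyap1-201 was at 4.60 FPKM in CFA6D 6, within its saline range of 4.14 to 5.01 FPKM. The log2 difference of the gene sum was 0.43 ± 0.15 (SE), a fold of 1.35 with a 95% interval of 1.07 to 1.69 (limma, adjusted p = 0.32). It missed the cutoff without saline 2 (0.34) or without CFA6D 4 (0.33). Of 8 markers of neurons in general, 4 were past the cutoff upward on day 6 and 0 downward, beside 11.1% of all gene sums. Their median log2 difference was 0.25 beside 0.03 over all gene sums. Of the 8, 7 had positive differences, and Isl1 was at -0.05. Those past the cutoff included Pou4f1 (0.56), the neuronal nuclear gene Rbfox3 (0.67) and the synaptic vesicle gene Syt1 (0.39). The summed level of the 8 genes was 1475 to 1865 FPKM in saline and 1824 to 2173 FPKM in CFA6D. Scaled to these 8 genes, the log2 difference of Adcyap1 was 0.13 and missed the cutoff, in a setting added after the data were seen. This scaling moved the median of all gene sums by -0.29 as well. The part of neuron content in the Adcyap1 difference was not tested.

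Nppb on day 6 was at 2.37, 1.56 and 2.05 FPKM, a mean of 1.99 ± 0.405 (SD, n = 3). Saline 1 to 3 had 4.58, 2.18 and 2.91 FPKM, a mean of 3.22 ± 1.23 (SD, n = 3). CFA6D 4 lay above saline 2, so the groups overlapped, and saline 1 was the highest library of all. Nppb fell by 0.62 ± 0.27 (SE) on the log2 scale, to 0.650 of saline with a 95% interval of 0.428 to 0.989 (limma, adjusted p = 0.44). The difference missed the cutoff without saline 1 (-0.34), saline 3 (-0.66), CFA3D 1 (-0.62), CFA6D 5 (-0.46) or CFA6D 6 (-0.65), and without saline 3 and CFA6D 6 together (-0.69). Scaled to the 8 neuronal genes it was -0.91.

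Among the others, Tac1 on day 6 was at 77.2, 66.0 and 53.0 FPKM, with an interval of 0.880 to 1.37 in fold against saline. Nmb was at 45.0, 53.6 and 42.3 FPKM, with an interval of 0.821 to 1.22. The lowest Tac1 level of all libraries and the highest were both in CFA6D. Cartpt spread in the same way, at 4.33, 3.12 and 1.98 FPKM in CFA6D 4, 5 and 6, beside 2.99, 2.76 and 3.15 FPKM in saline. Its group means were 3.15 and 2.96 FPKM, and the log2 difference was 0.02 ± 0.24 (SE).

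The peptides known to follow nerve injury gave no common pattern. Gal was at 10.4, 4.02 and 5.23 FPKM in saline, 5.61, 4.97 and 5.31 FPKM in CFA3D and 5.93, 5.17 and 3.40 FPKM in CFA6D. Saline 1 was the highest library of all, and without it the log2 difference turned from -0.19 to 0.20 on day 3 and from -0.35 to 0.04 on day 6. Npy was at 0.460, 0.808 and 0.394 FPKM in saline, 0.372, 0.594 and 0.124 FPKM in CFA3D and 0.358, 1.60 and 1.68 FPKM in CFA6D 4, 5 and 6. CFA6D 5 and 6 were thus above every other library for Npy and CFA6D 4 was not, and the day 6 difference from saline missed the cutoff (log2 difference 0.82 ± 0.58 SE). It passed only without CFA6D 4 (1.46). Vip had 0 to 10.9 read pairs in 8 libraries and 79.2 in CFA6D 6, where it was at 1.35 FPKM against 0 to 0.197 FPKM elsewhere. That is the library with the most marrow RNA, and no fold is drawn from the Vip values because the saline libraries were near the level of 3 read pairs. The fitted differences of Vip depend on the pseudocount.

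Of 7 marker genes of nerve injury, 5 had positive differences on day 3 and 6 on day 6. Their median log2 differences were 0.13 and 0.09, beside 0.05 and 0.03 over all gene sums. The transcription factor gene Jun was higher on day 3 (log2 difference 0.30) and day 6 (0.47). The peptidase gene Ecel1 was lower on day 3 (-1.87). No other gene of the list passed the cutoff on these days, beside 4.45% and 11.1% of all gene sums. Ecel1 was at 2.19 FPKM in saline 3, which held the most pituitary RNA, and at 0.273 and 0.339 FPKM in saline 1 and 2. The injury factor Atf3 was at 1.48 to 3.11 FPKM in saline, 1.90 to 3.41 FPKM in CFA3D and 2.94 to 3.61 FPKM in CFA6D, past the cutoff in no comparison.

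Between day 3 and day 6 of CFA, Nppb was lower and Sst and Npy were higher on day 6. These 3 calls among the 9 genes stand beside 7.39% of all gene sums tested (1190). Nppb was the only gene of the 9 whose libraries did not overlap between the days, with all of CFA6D below all of CFA3D (3.59, 4.22 and 2.90 FPKM), against 16.7% of all gene sums. This comparison shares its CFA libraries with those against saline, so its calls are not independent of them.

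Nppb was at a mean of 1.99 FPKM on day 6 and of 3.57 FPKM on day 3, a log2 difference of -0.81 ± 0.27 (SE), or a fold of 0.569 with an interval of 0.374 to 0.865 (limma, adjusted p = 0.63). It missed the cutoff without CFA3D 2 (-0.69) or CFA6D 5 (-0.66). Sst was at 2.86, 2.39 and 4.49 FPKM on day 6, a mean of 3.25 FPKM against 1.88 FPKM on day 3. Its log2 difference was 0.74 ± 0.25 (SE), a fold of 1.67 with an interval of 1.13 to 2.48 (limma, adjusted p = 0.64), and it missed the cutoff without CFA3D 2 (0.54) or CFA6D 6 (0.49). CFA6D 6, the library with marrow RNA, had the highest Sst level of all. Npy differed by 1.41 ± 0.58 (SE) on the log2 scale, a fold of 2.66 with an interval of 1.08 to 6.56 (limma, adjusted p = 0.67). It missed the cutoff without saline 1 (1.41), CFA3D 1 (1.50), CFA3D 3 (0.96), CFA6D 5 (1.11) or CFA6D 6 (1.07).

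The fitted differences of Nppb and Sst, known markers of the same neuron class, thus had opposite signs between the days. Against saline, Sst alone of them passed the cutoff on day 3 and Nppb alone on day 6. Sst over Nppb was 0.597, 1.22 and 1.03 in saline, 0.525, 0.322 and 0.826 in CFA3D, and 1.21, 1.53 and 2.19 in CFA6D. The ratios of CFA6D all lay above those of CFA3D, while saline overlapped both. This ratio was formed after the values were seen and was not tested. Of 5 further genes of the class, 0 passed the cutoff in any comparison. They were the itch cytokine receptor genes Il31ra and Osmr, the leukotriene receptor gene Cysltr2, the serotonin receptor gene Htr1f, and Nts, which encodes neurotensin. Their summed level was 12.8 to 18.2 FPKM in saline, 14.0 to 18.7 FPKM in CFA3D and 16.4 to 17.1 FPKM in CFA6D. Il31ra was at 3.19, 2.29 and 3.30 FPKM in saline and 3.84, 3.63 and 3.20 FPKM in CFA6D, where Nppb was at its lowest. Htr1f was at 1.24, 1.23 and 1.24 FPKM in saline and lower in every CFA6D library, at 1.19, 0.81 and 1.21 FPKM, without passing the cutoff. It was the only 1 of these 5 genes without overlap on day 6, against 16.2% of all gene sums.

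**Figure D3:**
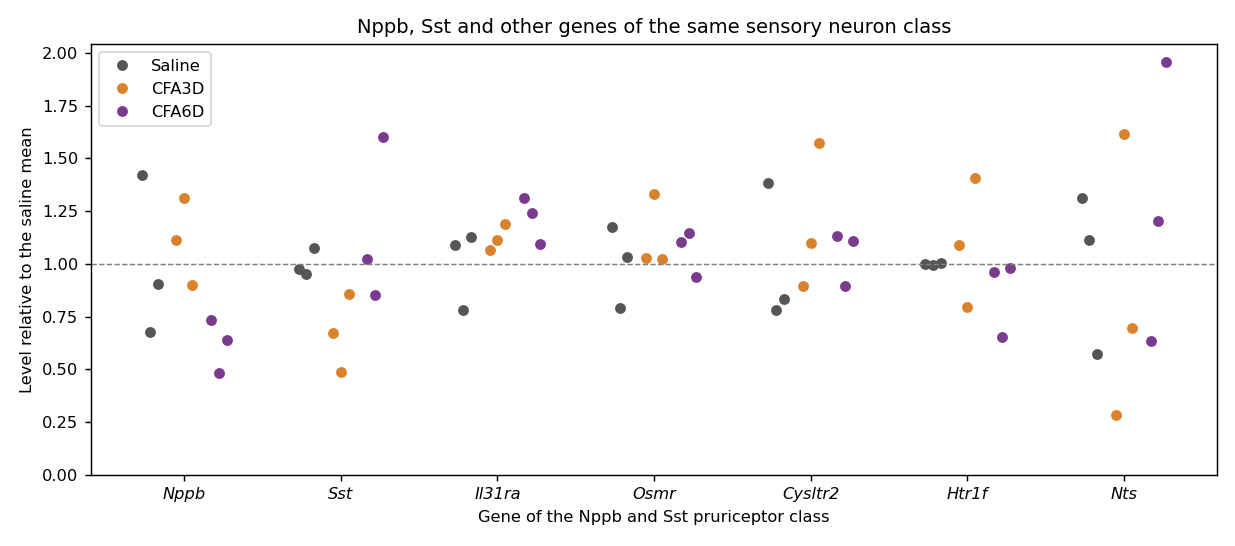
Levels of Nppb, Sst and 5 other genes of the same class of itch neurons, each divided by its mean in the saline libraries (dashed line at 1), by library and group. Nppb is below 1 in all CFA6D libraries and Sst in all CFA3D libraries, and Il31ra is above 1 in all libraries of both CFA groups. Saline 2 and 3 of Nppb and saline 1 and 2 of Sst are also below 1. Saline 1 and 3 of Il31ra are also above 1, and its CFA groups overlap saline.

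The transcripts of Tac1 kept the same order in every library. Tac1-203, the form without exon 4, held 45.9 to 69.0% of the gene sum, the full form Tac1-205 held 22.5 to 40.2%, and Tac1-201, without exon 6, held 7.45 to 19.2%. Their levels were 26.0 to 53.3, 17.4 to 24.5 and 5.66 to 13.0 FPKM. The value of 53.3 FPKM for Tac1-203 came from CFA6D 4, where Tac1-201 and Tac1-205 were near or at their lowest (5.75 and 17.4 FPKM), so the shares shifted there more than the gene sum. Without counting that library, Tac1-203 was at 26.0 to 35.6 FPKM. None of these transcripts passed the cutoff in any comparison, and their differences against saline on day 6 were 0.32 (Tac1-203), -0.11 (Tac1-205) and -0.04 (Tac1-201) on the log2 scale.

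Other transcripts of Adcyap1 spread more than its main form. Adcyap1-204, a short form of 327 bases with 83 coding bases, was at 3.52 FPKM in saline 3 and 4.35 FPKM in CFA6D 6, and between 0 and 0.93 FPKM elsewhere. It made up 33.1% of the gene sum in CFA6D 6. Adcyap1-203, which retains an intron and has no coding sequence, was at 1.90 to 4.0 FPKM. Adcyap1-205, of 318 bases, was at 0.33 to 2.54 FPKM. The short forms can take up fragments of the shared exons, and how the authors' counting divided such fragments is not given in the sources used here.

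Cartpt-201 and Cartpt-202, with and without the 39 bases, were about equally abundant, with 47.2% and 52.8% of the gene sum. Cartpt-201 was at 0.90 to 2.36 FPKM and Cartpt-202 at 1.09 to 2.17 FPKM, and both were lowest in CFA6D 6. Neither passed the cutoff in any comparison. Gal-202 held 87.7% of the Gal sum, and Gal-201 was listed at 0 in 4 of the 9 libraries. Nmb-201 and Nmb-202 held 61.7% and 32.3% of the Nmb sum, with shares of Nmb-201 between 58.5 and 63.5%. The first part of Nmb (chr7:80902227-80905076, minus strand) overlaps the end of Sec11a on the same strand, which had a gene sum of 10.5 to 14.5 FPKM. Nppb, Sst and Npy each had 1 transcript, Nppb-201, Sst-201 and Npy-201. In the fit over transcripts, Sst-201 on day 3 and Nppb-201 on day 6 had the same differences as above but missed the cutoff.

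**Figure D4:**
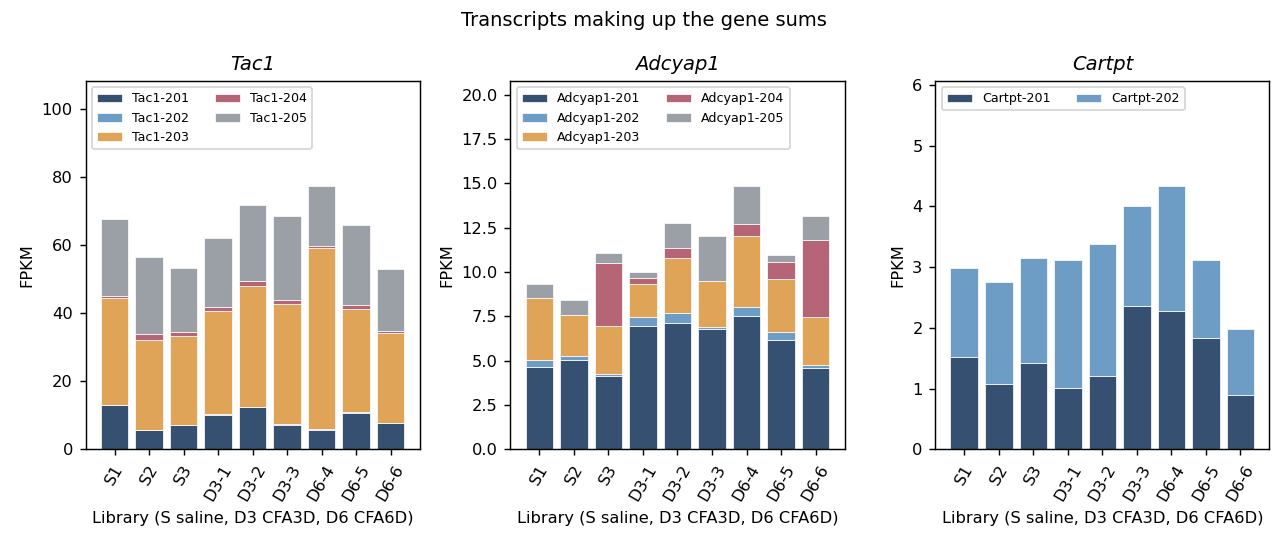
FPKM of each transcript of Tac1, Adcyap1 and Cartpt, stacked to the gene sum, in the 9 libraries (S saline, D3 CFA3D, D6 CFA6D, with the replicate number). Tac1-203 is the largest part of Tac1 in every library and peaks in D6-4 at 53.3 FPKM, and Adcyap1-204 is large in S3 and D6-6 alone.

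Of 21 receptor genes of these peptides, 16 passed the filter. The receptors below it were Tacr1, Tacr2, Sstr5, Galr3 and Npy4r, so that Tacr1, the main receptor of substance P, was at 0.0199 to 0.129 FPKM. Of the 16, the test passed 0 on day 3, 0 on day 6 and 1 between the days, beside 4.45%, 11.1% and 7.39% of all gene sums. The median log2 difference of the 16 was 0.10 on day 3 and 0.15 on day 6, beside 0.05 and 0.03 over all gene sums.

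The highest receptor levels were those of Npr3, the clearance receptor of natriuretic peptides, at a mean of 4.83 FPKM over the 9 libraries (1.79 to 8.02). Npr1, the guanylyl cyclase that BNP activates, was at 1.11 to 2.69 FPKM. Adcyap1r1, the PACAP receptor, had a mean of 4.35 FPKM and was highest in saline 3 (7.52 FPKM). Vipr1 and Vipr2, shared by PACAP and VIP, were at 0.0152 to 0.269 and 0.287 to 0.650 FPKM. None of these receptors of Nppb, Adcyap1 and Vip passed the cutoff in a comparison.

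Of the somatostatin receptors, Sstr4 had the highest mean (2.31 FPKM) and Sstr2 followed (0.71 FPKM). Sstr2 was at 0.654, 0.558 and 0.727 FPKM in saline, 0.637, 0.570 and 0.586 FPKM in CFA3D and 0.941, 0.997 and 0.696 FPKM in CFA6D. Its CFA6D libraries lay above those of CFA3D, as the only 1 of the 16 receptors without overlap between the days, against 16.7% of all gene sums. Sstr2 passed the cutoff in this comparison with a log2 difference of 0.47 ± 0.20 (SE, limma, adjusted p = 0.67). It missed the cutoff without saline 1 (0.47), CFA3D 1 (0.51), CFA3D 2 (0.45), CFA3D 3 (0.46), CFA6D 4 (0.42) or CFA6D 5 (0.39), with quantile normalization (0.35), in a fit of only the groups compared (0.47) and after scaling to the 8 neuronal genes (0.39). With a pseudocount of 1 it kept its call at a log2 difference of 0.23. Sstr1 and Sstr3 were at 1.99 and 1.13 FPKM in saline 3 and at no more than 0.59 and 0.50 FPKM elsewhere, so that their values followed the library with the most pituitary RNA.

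Among the remaining receptors, Npy1r and Npy2r, the receptors of neuropeptide Y, had means of 2.75 and 1.28 FPKM. Npy1r was at 2.44, 1.85 and 2.64 FPKM in saline and 3.03, 3.52 and 2.68 FPKM in CFA3D, where every library was above saline. Its difference missed the cutoff (log2 difference 0.40). It was the only 1 of the 16 receptors without overlap on day 3, against 9.13% of all gene sums. Npy5r was lower, at 0.0640 to 0.243 FPKM. The galanin receptors Galr1 and Galr2 were at 0.699 to 1.17 and 0.424 to 0.901 FPKM. Tacr3, the receptor preferred by neurokinin B, was at 0.580 to 0.934 FPKM, and Nmbr, the neuromedin B receptor, at 0.0396 to 0.258 FPKM. No receptor of the CART peptides was in the list.

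**Figure D5:**
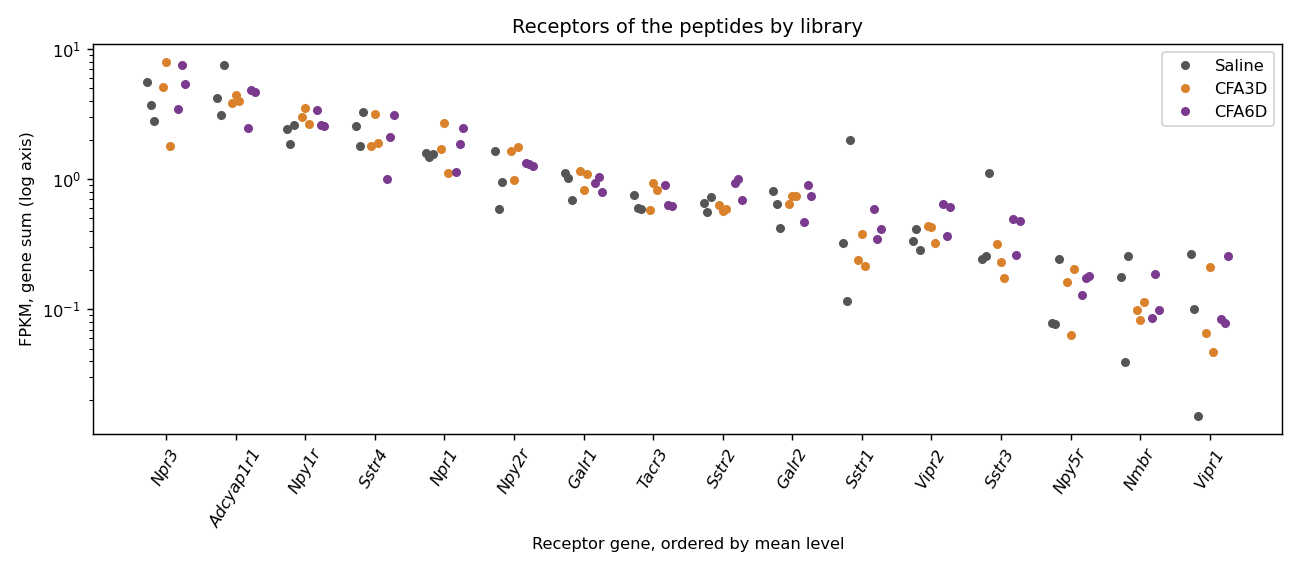
Levels of the 16 receptor genes that passed the filter (gene sum, FPKM, log axis), ordered by mean, with each library as a point and groups side by side. The groups overlap for nearly every receptor, and Sstr1 and Sstr3 have their highest points, 1.99 and 1.13 FPKM, in a saline library.

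The machinery that makes and breaks down the peptides gave no call. Of 12 genes of precursor processing and vesicle content, such as the convertase genes Pcsk1 and Pcsk2 and the amidating enzyme gene Pam, 0 passed the cutoff in any comparison. The same held for 5 peptidase genes, such as Mme, which encodes neprilysin. The processing sum was 515 to 613 FPKM in saline 1, saline 2 and CFA3D, 805 FPKM in saline 3 and 584 to 676 FPKM in CFA6D. Calcb, which encodes β-CGRP in the peptidergic nociceptors that carry Tac1, was higher on day 3 (log2 difference 0.35). Tac1 itself, at 0.19 and 0.14, did not pass. Of 3 genes of non-peptidergic nociceptors, Lpar3 was past the cutoff upward on both days (0.36 and 0.41) and Mrgprd on day 6 (0.51). Of 4 satellite glia genes, Fabp7 alone passed the cutoff between the days, lower on day 6 (-0.45), while Glul was at 0.008. Of 5 Schwann cell genes, the myelin regulator gene Egr2 alone passed on day 6 against saline (1.27). Only 3 of these 5 differences were positive, with Mbp at -0.29 and Pmp22 at -0.11. Egr2 spread from 2.72 to 8.09 FPKM within saline. These calls stand beside 4.45% of all gene sums on day 3, 11.1% on day 6 and 7.39% between the days.

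The genes whose levels followed those of a neuropeptide most closely were ranked by Pearson's r of log2(FPKM + 0.1) over the 9 libraries, among 13174 gene sums whose mean level was 1 FPKM or more. Such a ranking always finds high values with so many genes and so few libraries, which share their groups, and it is given as a description. For Tac1 they were Lrrc3 (r = 0.95) and Tpd52l2 (0.94), for Nmb Anxa9 (0.95) and Xkr8 (0.95), and for Adcyap1 Mfsd13a (0.97) and Yars (0.96). For Nppb they were Fam98c (0.98) and Eif3c (0.95). For Sst they were Nos1ap (0.94) and Cd79a (0.94), a B-cell gene that was at 0.440 to 1.02 FPKM in 8 libraries and 2.67 FPKM in CFA6D 6. For Gal they were Slc25a10 (0.95) and Plcb1 (0.92), and for Cartpt Tmem35a (0.90) and Gm10801 (0.90).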

How the data were processed

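Per the methods, total RNA of pooled mouse TG was sequenced after ribosomal depletion in 9 libraries, 3 a group. The submitters' extraction notes name the TruSeq RNA Sample Prep Kit instead, and which kit was used is not settled here. The authors deposited FPKM values per transcript, after trimming with Trimmomatic and mapping to GRCm38 per the methods. The submitters' processing notes instead name Bowtie 0.12.2 and mm8, and the methods name CLC Genomics Workbench for gene hit counts without mentioning FPKM. Transcripts were joined by ID to GENCODE M21 (101539 of 102122 mRNA transcripts), and FPKM was summed by gene symbol. Log2(FPKM + 0.1) of the 16096 gene sums at a mean level of 0.1 FPKM or more was fitted in limma 3.58.1 (R 4.3.3, trend, 3 groups, all 9 libraries, two-sided), and 66562 transcripts likewise. The cutoff was an unadjusted p under 0.05, as in the study, beside Benjamini-Hochberg adjusted p over all features. On simulated data, 91% of 200 gene sums shifted by 1 on the log2 scale (CFA6D against saline) passed the cutoff and 61.5% the adjusted one. The simulated noise was independent between libraries and the gene sums were of all levels. These shares therefore do not hold for smaller differences or for libraries with other tissue. Tables and figures were made in Python 3.11.15.

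The 9 genes and all lists were chosen with earlier results of these data known. Genes were named by rule: the 9 genes, receptors with a mean of at least 0.1 FPKM, genes of other lists past the cutoff (at most 3 a list and comparison) or set beside a neuropeptide gene, transcripts with at least 5% of a gene sum, and the 2 closest gene sums. A result that this rule would name is not reported here. Read pairs were estimated from the spacing of low FPKM values. An exact permutation test of 3 against 3 libraries cannot go below 0.1, so none is given. Alternatives were other pseudocounts, filters, scalings and sample sets. All per-sample columns of the mRNA table were used (0 left out), and the lncRNA and other noncoding tables held 0 transcripts of the 9 genes.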

Additional observations from a re-analysis of the deposited data

Results flagged for a closer look

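Groups of 3 libraries are too small for a test of single outlying libraries. In 3 of the 9 genes the difference between day 6 and day 3 of CFA was past the unadjusted cutoff of 0.05 in limma. This stands beside 7.39% of all gene sums, and 0 gene sums passed with the adjusted p. Nppb had a log2 difference of -0.81 (adjusted p = 0.63), with 3 of 3 CFA6D libraries below every CFA3D library. Sst had a log2 difference of 0.74 (adjusted p = 0.64), with CFA6D 5 just below CFA3D 3. Npy had a log2 difference of 1.41 (adjusted p = 0.67), and was smallest without CFA3D 3 (0.96), CFA6D 6 (1.07) or CFA6D 5 (1.11).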

How the results depend on the processing

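Each group had 3 pools, saline is of day 3 alone, and few read pairs stood behind Npy and Vip. None of the 9 genes reached an adjusted p under 0.05 in limma under any setting (smallest 0.092). All values below are log2 differences or counts past the unadjusted cutoff, and the cause of a change was not tested.

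With a minimum log2 difference of 1 added, 55, 94 and 124 gene sums remained past the cutoff for CFA3D against saline, CFA6D against saline and CFA6D against CFA3D, and 0, 0 and 1 of the 9 genes (Npy, 1.41). The same values then missed the call for Sst on day 3 (-0.58), Adcyap1 (0.43) and Nppb (-0.62) on day 6, and Nppb (-0.81) and Sst (0.74) between the days. A pseudocount of 1 left out Sst on day 3 (-0.41; 0 genes) and Nppb on day 6 (-0.47; 1 gene). With no filter, 1086 gene sums passed on day 3 but 0 of the 9 genes (Sst -0.58), 1 on day 6 (Nppb missed at -0.62), and Npy missed between the days (1.41). In fits of only the groups compared, Nppb on day 6 (-0.62; 1 gene) and Npy between the days (1.41) missed. With approximate read pairs, Adcyap1 passed on day 3 (0.42), Sst (-0.60), Nppb on day 6 (-0.64; 1 gene) and Npy between the days (1.55) missed, and the sign turned for Cartpt on day 6 (-0.024) and Adcyap1 between the days (-0.072). With the transcript of the highest mean, Adcyap1 passed on day 3 (0.59), Sst missed on day 3 (-0.58), Adcyap1 (0.37) and Nppb (-0.62) missed on day 6 (0 genes), and the sign turned for Cartpt on day 6 (-0.17), and for Tac1 (0.049) and Adcyap1 (-0.21) between the days. Quantile normalization turned Nmb (-0.0055 on day 3, -0.081 on day 6) and Cartpt on day 6 (-0.036), and an equal sum of the table turned Nmb (-0.019) and Cartpt (-0.0012) on day 6.

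Of the calls on day 3, 82.0% were upward, against 66.1% with an equal sum and 58.3% with quantile normalization, and on day 6 74.3% against 63.7% and 50.1%. Scaling to the 8 pan-neuronal genes, added after the data were seen, moved the median of all gene sums by -0.20, -0.29 and -0.092 in the 3 comparisons, and the upward share to 3.16% (855 calls), 2.10% (4534 calls) and 11.9%. Tac1 (-0.014, -0.17) and Nmb (-0.13, -0.30) then turned on days 3 and 6, Nppb on day 3 (-0.0073), Sst (-0.13) and Cartpt (-0.28) on day 6, Adcyap1 missed on day 6 (0.13; 1 gene), and Npy missed between the days (1.32). Without saline 3 and CFA6D 6, also added, Adcyap1 passed (0.38) and Sst missed (-0.53) on day 3, Nmb turned (-0.043 and -0.048) on both days, Nppb missed (-0.69; 1 gene) and Sst turned (-0.041) on day 6, where Npy was at 0.31, and between the days Sst (0.49) and Npy (1.07) missed (1 gene) and Tac1 (0.086), Gal (0.065) and Cartpt (0.077) turned.

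Leaving out each library in turn gave ranges on day 3 of 0.18 to 0.38 for Adcyap1, -0.77 to -0.38 for Sst, -0.043 to 0.19 for Nmb, -0.48 to 0.20 for Gal, -0.048 to 0.47 for Nppb and -0.24 to 0.55 for Vip, from which no fold is drawn. On day 6 they were 0.33 to 0.55 for Adcyap1, -0.86 to -0.34 for Nppb, -0.24 to 0.30 for Cartpt, -0.64 to 0.037 for Gal, -0.12 to 0.11 for Nmb, 0.48 to 1.46 for Npy and -0.092 to 0.35 for Sst. Between the days they were -0.95 to -0.66 for Nppb, 0.49 to 0.93 for Sst, 0.96 to 2.05 for Npy, -0.47 to 0.077 for Cartpt, -0.33 to 0.065 for Gal, -0.19 to 0.086 for Tac1 and 0.39 to 0.62 for Sstr2. The counts were 489 to 1524 gene sums on day 3 (1524 without saline 1), 1436 to 1997 on day 6 and 812 to 1351 between the days, and 0 to 1, 1 to 2 and 1 to 3 of the 9 genes.

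Saline and CFA3D share replicate numbers, but the deviations of same-numbered libraries correlated at only 0.087, -0.080 and 0.030 over gene sums, and libraries 2 and 3 correlated best with another number. With the replicate block, 495 gene sums passed on day 3 (57.0% upward), Sst kept its call (-0.58), and no call changed among the 8 genes other than Vip. Vip was below the filter there and without CFA6D 6, and Npy and Vip were below it at a mean of 1 FPKM, so these values could not be fitted.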
